A study of Mus musculus with 36 samples.

Results

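The 9 genes described here belong to the Notch pathway: the receptors Notch1, Notch2 and Notch3, the ligands Dll1 and Jag1, the DNA-binding effector Rbpj and the target genes Hes1, Hes5 and Hey1. They were chosen by name, as 9 of the 22367 protein-coding genes of the GENCODE vM1 annotation on mouse genome build mm9, and each was given the binding sites whose midpoint lay within 50 kb of its gene body. Notch receptors are activated by Delta and Jagged ligands on a neighbouring cell, whereupon a cleaved part of the receptor enters the nucleus and joins RBPJ at DNA. There it switches on genes of the Hes and Hey families, which encode repressors that keep neural progenitor cells from differentiating. Without a Notch signal, RBPJ is known to bind corepressors instead.

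The sites came from chromatin immunoprecipitation followed by sequencing (ChIP-seq) for 2 subunits of the NuRD chromatin remodelling and deacetylase complex, MBD3 and the ATPase CHD4. Each was precipitated from wild-type R1 embryonic stem cells (ESCs), kept in serum with LIF and the 2i inhibitors, with 2 replicates, and from neural progenitor cells (NPCs) derived from the same R1 ESCs and kept in NPC medium, with 1 sample. A GFP antibody gave 1 list for ZFP296, a zinc finger protein, in ESCs labelled as R1 cells with a ZFP296 BAC, although the study's methods describe a GFP-tagged construct in KH2 ESCs. SIN3A, the scaffold of another deacetylase complex, gave 2 lists in wild-type R1 ESCs, 1 without and 1 with added spike-in chromatin. Of the 36 samples, 9 had a peak list and the other 27 were not analysed here.

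Peak names in the second ESC CHD4 list mention a Zfp219 BAC, whereas its label gives wild-type cells, so counts, overlaps and region tallies that use it are also given without that list. The lists held between 2304 (NPC MBD3) and 29974 peaks (second ESC CHD4 replicate). The files hold peaks and no expression values, so the identity of the cells could not be checked against marker genes. With 1 NPC list and 2 ESC lists per factor no test over samples was possible. A gene was therefore counted as having more or fewer sites in NPCs only where its NPC count lay outside both ESC counts, and the share of all protein-coding genes that met the same rule is given beside each count.

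The sequences at a few of these sites, read from the plus strand of mm9 and 200 bases long around the peak midpoint, are shown so that the strongest NuRD sites of the genes described most fully can be read. The first pair are the strongest NPC MBD3 sites of Notch1 (chr2:26359182-26359381, 60 bases after an annotated start) and Notch2 (chr3:97768917-97769116, 48.4 kb before the start), and neither holds any of the strings searched.
Notch1 start, NPC MBD3: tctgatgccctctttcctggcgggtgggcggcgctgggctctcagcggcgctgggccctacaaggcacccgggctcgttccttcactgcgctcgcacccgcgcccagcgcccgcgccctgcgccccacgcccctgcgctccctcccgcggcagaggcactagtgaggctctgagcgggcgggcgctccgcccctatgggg
Notch2 upstream, NPC MBD3: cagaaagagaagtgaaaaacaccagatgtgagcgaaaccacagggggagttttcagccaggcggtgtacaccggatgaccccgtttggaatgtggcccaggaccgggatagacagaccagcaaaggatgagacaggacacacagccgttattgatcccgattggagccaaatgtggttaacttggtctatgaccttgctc

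A pair of weaker NPC MBD3 sites of Notch1, picked after their values were seen, held the string GTGGGAA that RBPJ binds, in capitals. One lay in an intron (chr2:26350050-26350249) and the other 9.19 kb upstream of the gene (chr2:26381276-26381475).
Notch1 intron, NPC MBD3: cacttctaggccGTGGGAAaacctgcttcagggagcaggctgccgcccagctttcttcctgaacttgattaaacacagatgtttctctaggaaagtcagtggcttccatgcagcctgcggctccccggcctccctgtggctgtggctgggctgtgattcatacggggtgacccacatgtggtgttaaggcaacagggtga
Notch1 upstream, NPC MBD3: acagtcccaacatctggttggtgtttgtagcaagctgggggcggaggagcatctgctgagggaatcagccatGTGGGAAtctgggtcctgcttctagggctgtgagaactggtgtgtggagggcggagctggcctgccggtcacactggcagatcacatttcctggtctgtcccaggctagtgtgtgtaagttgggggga

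For Rbpj the strongest ESC MBD3 site (chr5:54062776-54062975, beyond the 3′ end of the gene, with TTAGGG in capitals) and the strongest ZFP296 site (chr5:53946822-53947021, at the most upstream start) are shown, since both were peaks in all 7 ESC lists and in neither NPC list.
Rbpj downstream, ESC MBD3: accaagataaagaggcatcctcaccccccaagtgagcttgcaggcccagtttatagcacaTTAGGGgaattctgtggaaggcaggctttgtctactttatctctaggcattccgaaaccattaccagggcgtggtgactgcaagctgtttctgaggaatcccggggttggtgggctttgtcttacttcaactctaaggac
Rbpj start, ESC GFP-ZFP296: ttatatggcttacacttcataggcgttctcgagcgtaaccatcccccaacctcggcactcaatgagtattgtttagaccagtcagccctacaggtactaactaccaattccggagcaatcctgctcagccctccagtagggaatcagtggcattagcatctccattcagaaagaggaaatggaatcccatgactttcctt

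The promoter of Hes5 is shown because it is a textbook RBPJ target without a NuRD site here. It was taken from the RefSeq promoters of build GRCm38.p6, which run from 250 bases before to 50 bases after a start and held 7 of the 9 genes, Hes1 and Hey1 being the others. GTGGGAA, searched on both strands and set in capitals, occurs at 2 places in it, and 6.38% of the 32851 promoters in the table hold at least 1. The same letters lie at chr4:154334782-154335081 of mm9, and no peak of any list overlapped them.
Hes5 promoter: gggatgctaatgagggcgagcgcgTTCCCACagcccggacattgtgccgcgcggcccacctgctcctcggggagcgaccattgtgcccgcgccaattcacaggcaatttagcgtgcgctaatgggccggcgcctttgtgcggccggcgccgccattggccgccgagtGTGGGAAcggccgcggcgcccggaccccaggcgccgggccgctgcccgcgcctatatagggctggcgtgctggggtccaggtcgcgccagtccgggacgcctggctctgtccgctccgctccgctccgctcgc

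In both kinds of cell NuRD sites lay near several of the 9 genes. Notch2, a receptor, had more MBD3 and more CHD4 sites in NPCs, whereas Rbpj had many sites of both subunits in ESCs and nearly none in NPCs. Notch1 and Hes1 had sites in both cells, and Hes5 had no NuRD site in either. The grid of counts gives the number for every gene and list.

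**Figure D1:**
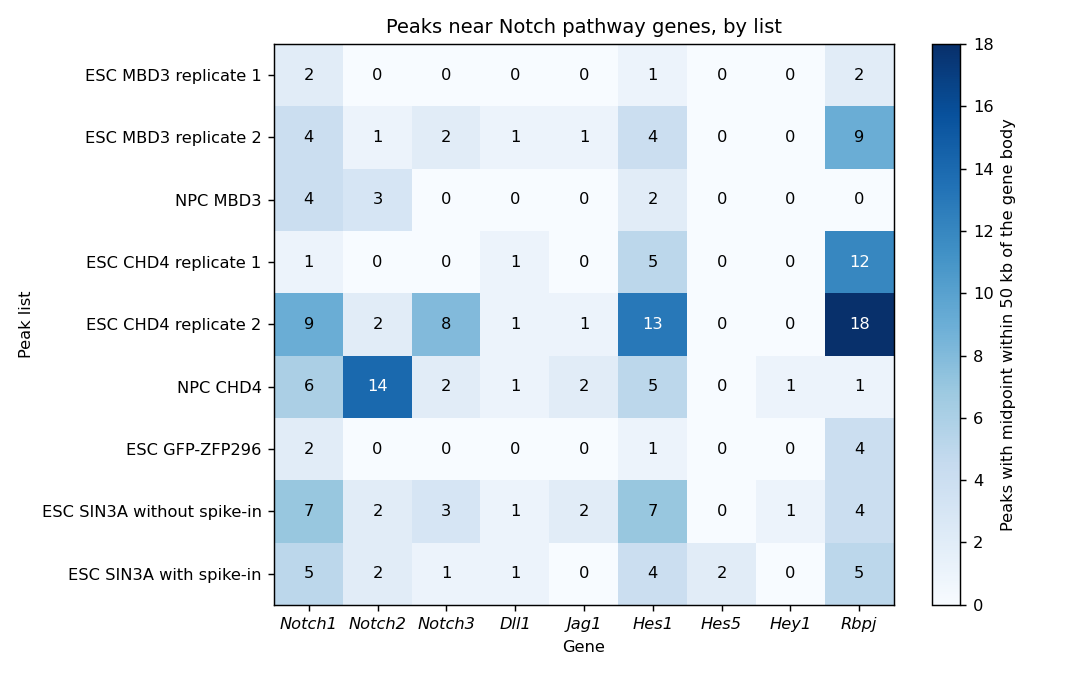
Number of peaks with a midpoint within 50 kb of the gene body, for 9 Notch pathway genes (columns) in 9 peak lists (rows); darker cells hold more peaks. The highest counts were 18 at Rbpj in the second ESC CHD4 list and 14 at Notch2 in NPC CHD4, and the NuRD rows are at 0 throughout for Hes5.

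By gene, MBD3 counts lay above both ESC lists in NPCs for 1 of 9 (Notch2), against 7.94% of all protein-coding genes, and below both for 1 of 9 (Rbpj), against 10.3%. CHD4 counts lay above both ESC lists in NPCs for 3 of 9 (Notch2, Jag1 and Hey1), against 19.9% of all genes, and below both for 1 of 9 (Rbpj), against 20.6%. Without the second CHD4 list these counts were 5 of 9, adding Notch1 and Notch3 (39.2% of all genes), and 1 of 9, still Rbpj (21.2%). The shares of the 9 genes for MBD3, 11.1% in each direction, are those of a single gene. Both Notch2 and Rbpj kept these calls when either ESC replicate was left out.

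Having a site at all was more common than a difference. In ESCs, 3 of the 9 genes had an MBD3 peak in replicate 1 (15.8% of all genes) and 7 in replicate 2 (33.1%), and in NPCs 3 had one (15.7%). Notch1 and Hes1 were among the genes with an MBD3 peak in all 3 lists, joined by Rbpj in both ESC lists and by Notch2 in NPCs and the second ESC list. A CHD4 peak was near 4 of 9 genes in ESC replicate 1 (43.0% of all genes), 7 in ESC replicate 2 (67.7%) and 8 in NPCs (57.9%), where Hes5 alone had none.

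In ESCs, ZFP296 peaks were near 3 of the 9 genes (Notch1, Hes1 and Rbpj; 21.9% of all genes). SIN3A peaks were near 8 without spike-in (65.1%) and 7 with spike-in (59.2%). The genes with a ZFP296 peak were the same 3 that had an MBD3 peak in the first ESC list. However, ZFP296 peaks overlapped an ESC MBD3 peak in 4 of 4 cases at Rbpj, 1 of 2 at Notch1 and 0 of 1 at Hes1. The windows around these genes were 101.4 to 236.8 kb long, against a median of 115 kb for all genes, and a longer window can hold more peaks. Summed over the windows, the 9 genes had 0.694 NPC MBD3 peaks per 100 kb against 0.145 for all genes, and 1.70 against 0.452 in the second ESC MBD3 list. In the first ESC MBD3 list the values were 0.386 and 0.165. For CHD4 they were 2.47 and 1.21 in NPCs, and 1.47 and 0.919, and 4.01 and 2.29, in the ESC replicates. For ZFP296 they were 0.540 and 0.239, and for SIN3A 2.08 and 1.62 without spike-in and 1.54 and 1.13 with it. The NPC MBD3 peaks lay at only 3 of the 9 genes, and 9 of the 22 peaks of the second ESC MBD3 list were at Rbpj.

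**Figure D2:**
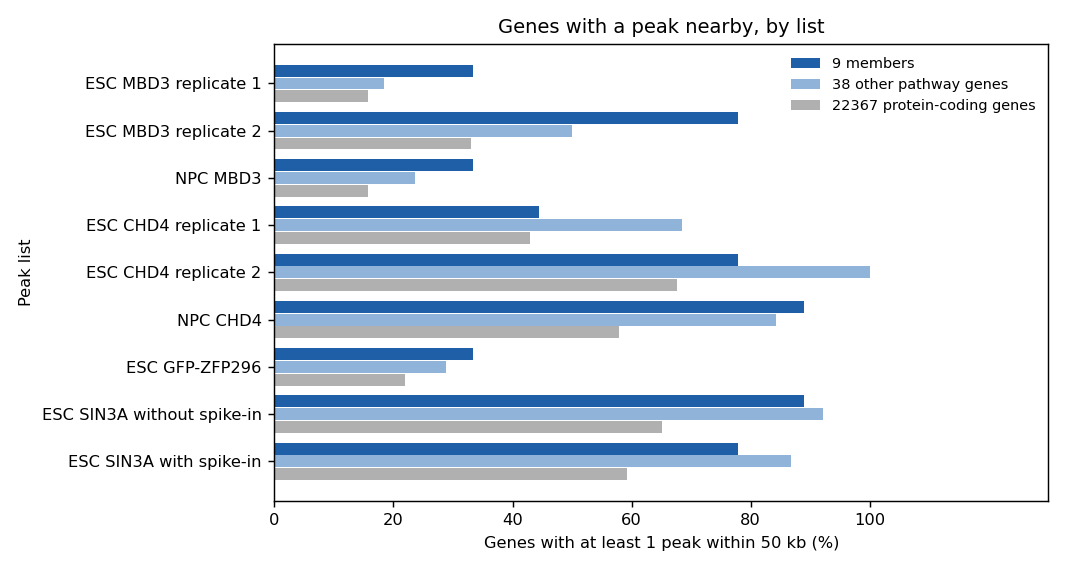
Share of genes (%, horizontal axis) with at least 1 peak within 50 kb in each of 9 lists, for the 9 genes described here, 38 other Notch pathway genes and all 22367 protein-coding genes. For NPC MBD3 the shares were 33.3%, 23.7% and 15.7%, and for ESC CHD4 replicate 1 they were 44.4%, 68.4% and 43.0%.

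Among the receptors, Notch2 (chr3:97817461-97954290, plus strand) held 0 and 1 MBD3 peaks in the ESC replicates and 3 in NPCs. Its CHD4 counts were 0 and 2 in ESCs and 14 in NPCs, a count reached by 0.358% of all genes. Per kb of window, 2.68% of genes were as dense. The NPC counts of both subunits thus lay above both ESC lists, and the CHD4 count did so by 12 peaks over the higher of them.

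The strongest NPC MBD3 peak of Notch2, at chr3:97768836-97769199, had a value of 22.9 (the peak caller's −log10 of a p or q value) and ranked 66 of 2304 in its list. It lay 48.4 kb before the start, close to the edge of the window. Distances here are to the nearest annotated protein-coding transcript start of the gene a peak was counted with. Values of different lists depend on the depth and background of each sample, and are given side by side only. The other MBD3 peaks were in introns, 14.0 kb (value 9.0) and 50.1 kb (value 14.0) after the start. All 3 overlapped NPC CHD4 peaks, with CHD4 values of 17.3, 14.4 and 14.96, and none overlapped a peak of any ESC list. The strongest NPC CHD4 peak, with a value of 20.3, was in an intron 28.9 kb after the start and had no MBD3 peak with it.

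The start of Notch2 was the exception, being bound in both cells. CHD4 had a value of 15.5 there in NPCs and 7.60 in the second ESC list, while the first ESC list had no peak. SIN3A in ESCs also had 2 peaks at this start in each of its lists, the higher with values of 15.4 and 12.2. Merged over the MBD3 and CHD4 lists, Notch2 had 16 separate regions, of which 13 were bound only in NPCs, 2 only in ESCs and 1 in both. Without the second ESC CHD4 list there were 15, of which 14, 1 and 0. Among all regions of these lists 33.0% were bound only in NPCs, and 53.6% without that list.

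**Figure D3:**
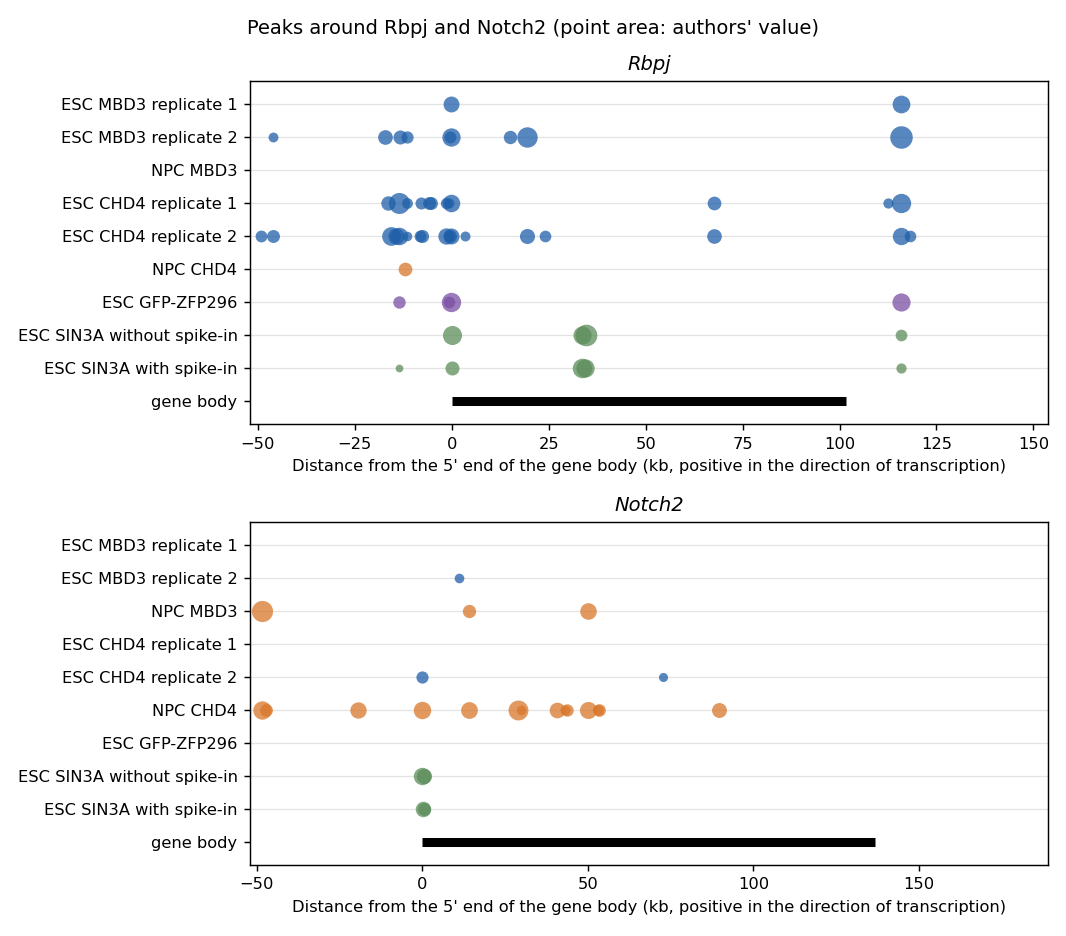
Peak midpoints around Rbpj (top) and Notch2 (bottom) in 9 lists (rows), by distance in kb from the 5′ end of the gene body, with the gene body as a black bar; blue is NuRD in ESCs, orange NuRD in NPCs, purple ZFP296, green SIN3A, and point area is proportional to the deposited value. Rbpj had 1 NPC peak (CHD4, 9.66) and up to 18 in an ESC list, and Notch2 had 14 NPC CHD4 peaks spread from 48.6 kb upstream to 89.6 kb downstream of the start.

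Notch1 (chr2:26313423-26372183, minus strand), which has 4 annotated starts, held 2 and 4 MBD3 peaks in ESCs and 4 in NPCs. CHD4 had 1 and 9 peaks in ESCs and 6 in NPCs. The NPC counts were within the range of the ESC replicates, and the ESC CHD4 counts differed from each other by 8. As many NPC MBD3 peaks or more were found at 0.331% of all genes.

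At Notch1 some CHD4 peaks of NPCs overlapped peaks of the second ESC CHD4 list, while no MBD3 peak overlapped an MBD3 peak of the other cells. The stronger shared CHD4 site (chr2:26362947-26363397) lay 2.00 kb after a start, with values of 13.7 in NPCs and 9.33 in the second ESC list and no peak in the first. In NPCs the strongest MBD3 peak (chr2:26359140-26359425, value 15.2, rank 220 of 2304) was 60 bases after a start and overlapped the RefSeq promoter. At that spot CHD4 had 6.16 in NPCs, 4.57 in the second ESC list and no peak in the first. The ESC MBD3 peaks closest to that start were on either side of it, with values of 6.58 and 6.81 in replicate 2 and none in replicate 1. The strongest ESC MBD3 peaks instead overlapped an exon near the 3′ end of the gene, with values of 7.13 and 12.5 in the replicates. They lay 44.8 kb after the nearest Notch1 start, and the closest annotated start of any gene was that of Sec16a. Of the ESC MBD3 peaks counted with Notch1, 0 of 2 in replicate 1 and 2 of 4 in replicate 2 were closest to a Notch1 start.

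That 3′ site was also bound in ESCs by CHD4 in the second list (12.8), by ZFP296 (6.92) and by SIN3A without spike-in (7.88), and no NPC peak lay there. None of the 4 NPC MBD3 peaks of Notch1 overlapped an ESC MBD3 peak, and all 4 overlapped an NPC CHD4 peak. The strongest NPC CHD4 peak of Notch1 (15.5) was in an intron, 9.12 kb after the nearest start. The other 3 NPC MBD3 peaks were the intronic site (8.76) and the site 9.19 kb upstream (7.38) printed above, and a site 15.4 kb upstream (5.97). Some peaks in the window of Notch1 lay at other genes: a ZFP296 peak (7.32) with CHD4 and SIN3A at the start of Inpp5e, and SIN3A peaks at the start of Sec16a.

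Notch3 (chr17:32257765-32303825, minus strand) had MBD3 peaks only in the second ESC list, 2 against 0 in ESC replicate 1 and 0 in NPCs, the stronger (10.4) in an intron. Its CHD4 counts were 0 and 8 in ESCs and 2 in NPCs. The direction therefore depended on which ESC list was used. One site 0.691 to 0.730 kb after the start was shared between the cells, with CHD4 values of 14.7 in NPCs and 8.0 in the second ESC list and a SIN3A value of 13.01 in the list without spike-in. The strongest ESC CHD4 peak (15.3), again of the second list, was 27.9 kb upstream, where the closest annotated start was that of Ephx3. Of the 8 peaks of that list, 4 were closest to the Notch3 start.

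**Figure D4:**
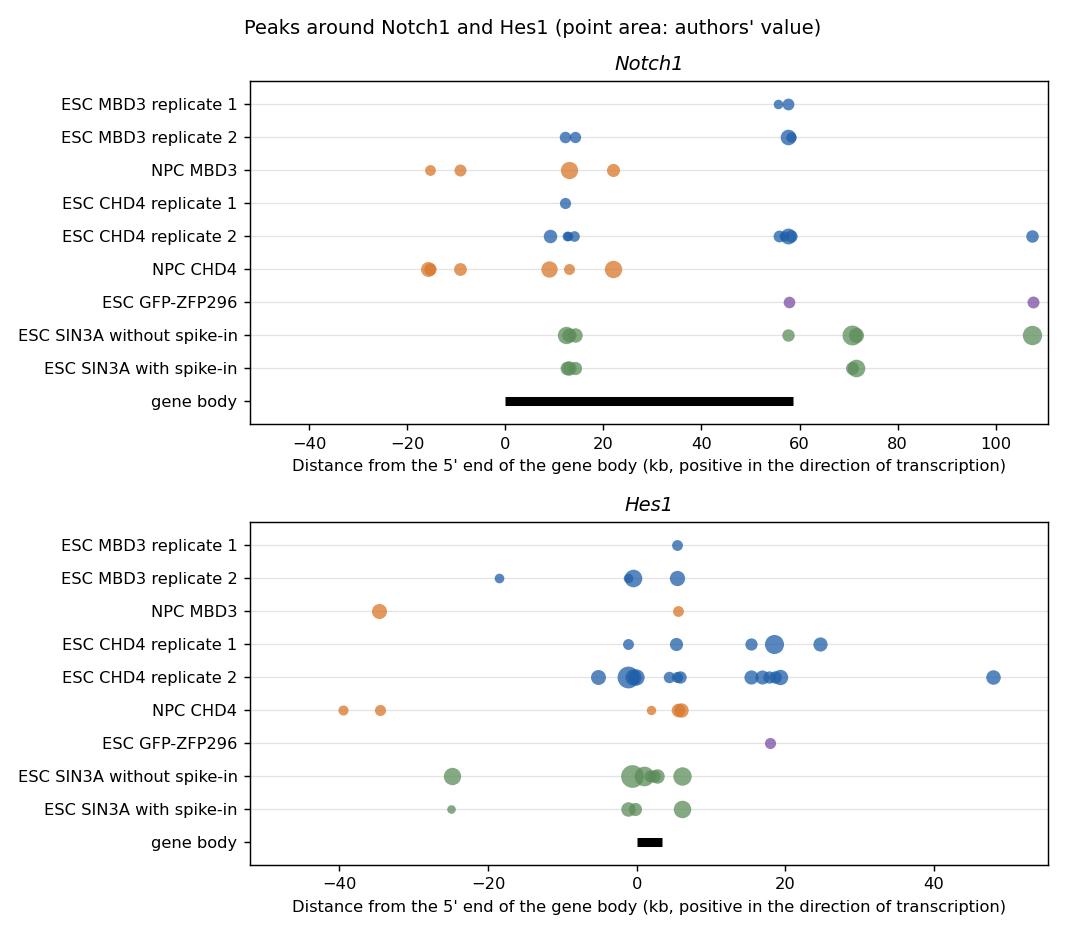
Peak midpoints around Notch1 (top) and Hes1 (bottom) in 9 lists (rows), by distance in kb from the 5′ end of the gene body, drawn in the same way. At Notch1 the NPC MBD3 peaks lay upstream and in the 5′ part of the gene and the strongest ESC MBD3 peaks (7.13 and 12.5) near its 3′ end. At Hes1 NuRD peaks of ESCs and NPCs met just beyond the gene, and SIN3A peaks lay next to the ESC ones without overlapping them.

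Both ligands had few sites. Dll1 (chr17:15504318-15513836, minus strand), the Delta ligand, had 0 and 1 MBD3 peaks in ESCs and 0 in NPCs, and 1 CHD4 peak in each of the 3 lists. These CHD4 peaks were at 3 different places. ESC replicate 1 had one 4.88 kb upstream (value 11.9) together with MBD3 of replicate 2 (9.04) and SIN3A in both lists (13.4 and 10.97). In the second ESC list it was a weak one (3.38) at the start of the neighbouring gene Fam120b, and in NPCs it lay 10.1 kb after the start, beyond the gene (9.82).

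Jag1 (chr2:136907192-136942380, minus strand), the Jagged ligand, had 0 and 1 MBD3 peaks in ESCs and 0 in NPCs, with CHD4 counts of 0, 1 and 2. The NPC CHD4 count was above both ESC lists by 1 peak, and in ESC replicate 2 MBD3 (6.77) and CHD4 (7.60) met at the start. SIN3A without spike-in also had peaks there (5.38 and 7.40), whereas the NPC CHD4 peaks lay 1.83 kb (6.20) and 67.0 kb (7.60) after the start.

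Rbpj (chr5:53947018-54048684, plus strand) encodes the protein through which all Notch receptors act on DNA. It held 2 and 9 MBD3 peaks in ESCs and 0 in NPCs. CHD4 had 12 and 18 peaks in ESCs and 1 in NPCs. ZFP296 had 4 peaks, and SIN3A 4 without and 5 with spike-in. All ESC NuRD lists were thus above the NPC lists. For MBD3, 4.96% of genes had as many peaks or more in replicate 1 and 0.246% in replicate 2. Per kb of window, 4.69% and 1.04% were as dense. For CHD4 the shares were 1.16% and 1.57% by count, and 3.51% and 5.82% per kb of window. Merged over the MBD3 and CHD4 lists, Rbpj had 23 separate regions, 22 bound only in ESCs and 1 only in NPCs, and without the second ESC CHD4 list 17, of which 16 and 1. Of all regions of these lists 60.7% were bound only in ESCs, and 41.9% without that list.

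ESC replicates met at some of these sites. Both peaks of the first ESC MBD3 list overlapped the second list, as did 8 of the 12 peaks of the first CHD4 list. An intronic peak of the second MBD3 list (21.3, rank 209 of 7551) and the strongest peak of the second CHD4 list (17.9), 15.6 kb upstream, had no counterpart in the other replicate. A region where the replicates did meet (chr5:53946676-53947217) lay at the most upstream start and was a peak in all 7 ESC lists. Its values were 12.9 and 17.1 for MBD3, 15.7 and 13.1 for CHD4, 19.1 for ZFP296, and 18.6 and 10.03 for SIN3A. The ZFP296 peak ranked 154 of 3102 in its list.

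A region beyond the 3′ end (chr5:54062426-54063145) was likewise bound in all 7 ESC lists, with 16.2 and 25.9 for MBD3, 19.1 and 15.4 for CHD4, 16.9 for ZFP296, and 6.99 and 5.33 for SIN3A. The closest annotated start there is that of Cckar, so the site may be counted with either gene. Another region, 13.5 kb upstream of Rbpj, had the strongest ESC CHD4 peak of replicate 1 (22.6) with CHD4 of replicate 2 (15.7), MBD3 of replicate 2 (10.1), ZFP296 (7.89) and SIN3A with spike-in (3.06). SIN3A was highest elsewhere, at the downstream start of the gene (24.0 without spike-in, and 19.4 with it at a neighbouring peak), where no NuRD or ZFP296 peak was found.

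All 4 ZFP296 peaks of Rbpj overlapped an ESC MBD3 and an ESC CHD4 peak. The single NPC peak, for CHD4 (chr5:53934733-53935160, value 9.66), was 12.1 kb upstream of the start and overlapped no ESC peak. No NPC MBD3 peak lay within 50 kb.

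Of the target genes, Hes1 (chr16:30064470-30067882, plus strand), a repressor of neuronal differentiation, had 1 and 4 MBD3 peaks in ESCs and 2 in NPCs. CHD4 had 5 and 13 peaks in ESCs and 5 in NPCs. ZFP296 had 1 peak, and SIN3A had 7 without and 4 with spike-in. The NPC counts lay within or at the edge of the ESC range. Hes1 held the only NPC MBD3 site that overlapped an ESC MBD3 site among the 9 genes.

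That site was part of a region of merged peaks (chr16:30069651-30070765) beyond the 3′ end of this short gene. Peaks of 8 of the 9 lists, all but ZFP296, lay in it, though not all at one place. MBD3 had values of 6.06 and 11.9 there in ESCs and 6.05 in NPCs, 4.43 to 4.60 kb after the protein-coding start. CHD4 had 8.88 in the first ESC list and 2 peaks in each of the other lists, up to 7.84 in the second ESC list and 10.6 in NPCs. SIN3A had 17.4 and 15.7, at peaks that overlapped each other and an NPC CHD4 peak. They overlapped no MBD3 peak and no ESC CHD4 peak.

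Upstream of the Hes1 start the ESC replicates differed. The second ESC list had its highest CHD4 peak 2.07 kb upstream (24.3, rank 849 of 29974) and MBD3 1.40 kb upstream (15.8), and SIN3A without spike-in had its highest peak there too (26.5). The first ESC lists had a CHD4 peak of 6.09 and no MBD3 peak at that place. NPCs had no MBD3 peak at that place, and CHD4 had one weak peak 0.973 kb after the start (4.54). The strongest CHD4 peak of the first ESC list (18.6) was 17.5 kb after the start, where NPCs had none, and SIN3A without spike-in had a peak at the start itself (19.8).

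Hes5 (chr4:154335032-154336480, plus strand), the target that marks Notch activity in neural progenitors, had no MBD3, CHD4 or ZFP296 peak in any list. Only SIN3A with spike-in had peaks, 2 weak ones of 4.83 and 3.78, and the second also lay at the start of Pank4. Hey1 (chr3:8663362-8667039, minus strand) had no NuRD peak in ESCs and 1 in NPCs, for CHD4 2.29 kb after the start (9.38). SIN3A without spike-in had 1 peak in ESCs at another place, 0.549 kb before the start (11.3).

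Most MBD3 peaks overlapped CHD4, here as in the whole lists, though in ESCs this rested in part on the second CHD4 list. All 9 NPC MBD3 peaks near these genes overlapped an NPC CHD4 peak (100%, exact 95% interval 66.4 to 100%), against 84.9% of all NPC MBD3 peaks. Conversely 9 of 32 NPC CHD4 peaks overlapped MBD3 (28.1%, 13.7 to 46.7%), against 9.76% of all. In ESCs, 5 of 5 and 17 of 22 MBD3 peaks overlapped a CHD4 peak, against 89.6% and 75.2% of all. Without the second CHD4 list these were 3 of 5 and 9 of 22, against 73.2% and 41.0%. These intervals cover counting error only, and neighbouring peaks of a gene are not independent.

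Sites were seldom shared between the cells, here as in the whole lists. Of the 9 NPC MBD3 peaks, 1 overlapped an ESC MBD3 peak (11.1%, 0.281 to 48.2%), against 10.1% of the whole list, and 6 of 32 NPC CHD4 peaks overlapped an ESC CHD4 peak (18.8%, 7.21 to 36.4%), against 15.6%. Of these 6, 5 rested on the second ESC CHD4 list alone, and without it the overlap was 1 of 32, at Hes1 (3.12%, 0.0791 to 16.2%), against 6.33%. The overlap between ESC replicates was 4 of 5 peaks of the first MBD3 list (against 64.3% of the whole list) and 12 of 19 of the first CHD4 list (against 70.4%). In the other direction, 4 of 22 peaks of the second MBD3 list met the first (18.2%, against 20.7%). For the second CHD4 list it was 13 of 52 (25.0%, against 27.7%). Near these genes ZFP296 met CHD4 at 7 of 7 peaks, MBD3 at 5 of 7 and SIN3A at 5 of 7, against 69.4%, 52.2% and 43.3% of its whole list. Without the second CHD4 list ZFP296 met CHD4 at 4 of 7 peaks, all at Rbpj, against 43.1%. The 87 regions of MBD3 and CHD4 at the 9 genes were bound only in ESCs in 56 cases (64.4%), only in NPCs in 26 (29.9%) and in both in 5 (5.75%), close to the 60.7%, 33.0% and 6.29% of all regions of these lists. There were 4 ESC lists and 2 NPC lists. Without the second ESC CHD4 list the cases were 32, 31 (48.4%) and 1 (1.56%) of 64. Of all regions of the lists left, 41.9% were bound only in ESCs, 53.6% only in NPCs and 4.44% in both.

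Of the strings searched on both strands in the central 200 bases, those of AP-1, TGAGTCA and its reverse complement TGACTCA, were present in 1 of 9 NPC MBD3 peaks near these genes (11.1%, 0.281 to 48.2%), against 47.7% of the whole list. In NPC CHD4 peaks they were in 10 of 32 (31.2%, 16.1 to 50%), against 42.3%, and 6 of these 10 were at Notch2. The 3 NPC MBD3 peaks of Notch2 held none.

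The RBPJ string was in 2 of 9 NPC MBD3 peaks (22.2%, 2.81 to 60.0%), both at Notch1, against 5.34% of the list. For CHD4 it was in 4 of 32 NPC peaks, at Notch1, Jag1 and Hes1, against 4.27%, and in 6 of 52 peaks of the second ESC list, 4 of them at Rbpj, against 4.24%. The first ESC CHD4 list had it in 0 of 19 (up to 17.6%), against 4.16%. TTAGGG was in 6 of 22 peaks of the second ESC MBD3 list (27.3%, 10.7 to 50.2%), 4 of them at Rbpj, against 8.94% of the list, and in 0 of 9 NPC MBD3 peaks, against 6.29%. In the central 500 bases the first ESC CHD4 list held the RBPJ string in 4 of 19 peaks (21.1%, against 10.4%) and NPC MBD3 held TTAGGG in 2 of 9 (22.2%, against 16.0%), so both moved from below to above the share of their list. AP-1 in NPC MBD3 was then in 2 of 9 (against 56.2%) and RBPJ in 3 of 9 (against 11.8%). A string is a description of the letters under a peak and says nothing of which protein bound there.

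**Figure D5:**
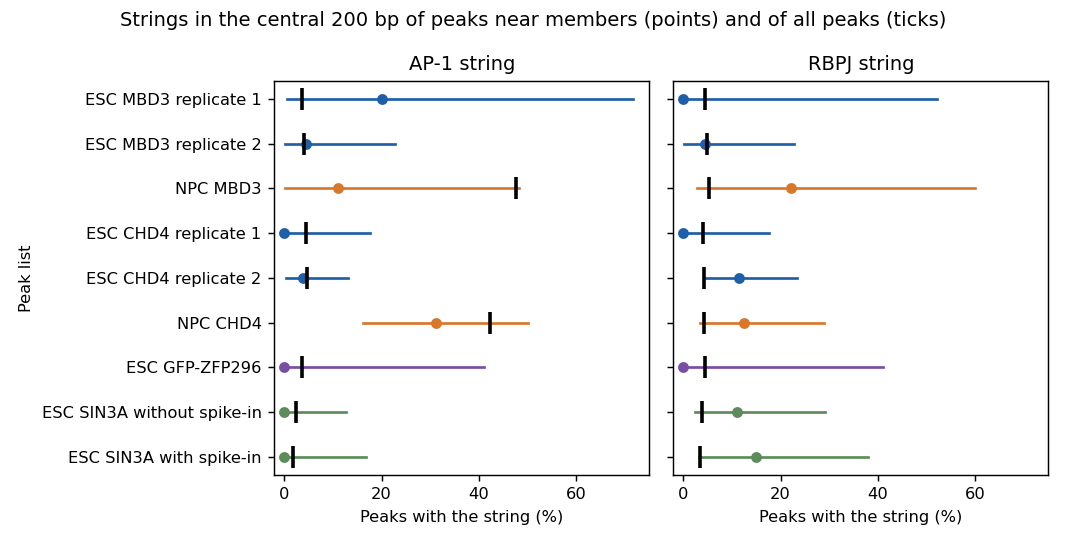
Share of peaks (%, horizontal axis) that hold an AP-1 (left) or RBPJ string (right) in their central 200 bases, for 9 lists: points are peaks near the 9 genes with exact 95% intervals as lines, and black ticks are all peaks of the list. In NPC MBD3 the AP-1 share was 11.1% against 47.7% and the RBPJ share 22.2% against 5.34%.

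The rest of the pathway was counted with a list of 38 further genes, from other receptors and ligands to processing enzymes, coactivators and corepressors. MBD3 counts were above both ESC lists in NPCs for 6 of the 38 (15.8%) and below for 4 (10.5%), and CHD4 counts were above for 4 (10.5%) and below for 14 (36.8%), against the shares of all genes given above. Without the second ESC CHD4 list the CHD4 counts were above for 19 of the 38, against 39.2% of all genes, and below for 14, against 21.2%. Maml3, a coactivator of the Notch complex, had 15 CHD4 peaks in NPCs and 0 and 1 in ESCs, the pattern of Notch2, in a window of 517.3 kb. Dtx1, a ubiquitin ligase of the pathway, had the opposite pattern, with 12 and 18 ESC CHD4 peaks and 0 in NPCs. Spen, a corepressor that binds RBPJ, had 4 and 5 ESC MBD3 peaks and 0 in NPCs. Its window also held 10 and 15 CHD4 peaks in ESCs, 9 in NPCs, and 8 ZFP296 peaks. Of these, 2 and 1 MBD3 peaks, 3, 4 and 4 CHD4 peaks and 3 ZFP296 peaks were closest to a Spen start. The fringe enzyme Lfng, which modifies Notch receptors, had 0 and 2 MBD3 peaks in ESCs and 3 in NPCs.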

How the data were processed

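ChIP-seq peak lists of 9 samples were used; 27 further samples had no list here. Per the study's methods, the authors mapped reads to mm9 with BWA, kept unique reads, removed duplicates and called peaks with a matching input as reference; the submitters' processing notes name SAMtools and MACS2 2.0. The value deposited with each peak is the −log10 of a p or q value (which one was not given in the sources used here), with calling thresholds in the peak names of 0.001, or 0.0001 for SIN3A without spike-in. Peaks were called per sample. Reads per sample were not used here, so depth is unknown beyond a read number (17M) repeated in the peak names of 7 lists.

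Peaks were assigned by midpoint within 50 kb of GENCODE vM1 gene bodies. A start window ran from 1 kb before to 5 kb after an annotated protein-coding transcript start. Distances are to the nearest such start of the gene a peak was counted with. Overlap meant at least 1 shared base. Shares carry exact (Clopper-Pearson) 95% intervals. No test over samples was made. The rule for named peaks was each gene's highest per list and those at its starts; the text gives a selection of these, 1 is not reported here, and others named were chosen after their values were seen. The 9 genes, the 38 further genes and the strings were chosen with earlier results of these data known. Groups came from sample titles; nothing in the labels says whether replicates were separate cultures. Alternatives were the window, value minimum, list size, assignment, overlap rule, the central bases searched for strings, and leaving out each ESC replicate. Overlaps, further genes and regions without the second ESC CHD4 list, and regions of MBD3 and CHD4 alone, were added after seeing the data. Counting was tested on simulated data. Python 3.11.15, numpy 2.4.6, scipy 1.17.1 and matplotlib 3.10.9 were used.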

Additional observations from a re-analysis of the deposited data

How the results depend on the processing

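Notch2 (more MBD3 and CHD4 peaks in NPCs) and Rbpj (fewer of both) kept their call under every window, value minimum, list size, assignment and left-out ESC replicate that was run. The number of genes with more MBD3 peaks in NPCs was 1 as reported. With lists cut to equal size it was 2 (adding Notch1), and 10.9% of all genes met the rule. It was also 2 when the nearest start had to be the gene's own (4.22% of all genes). Per 1000 peaks of the list it was 3 (Notch1, Notch2 and Hes1), against 13.8%. When an ESC replicate was left out it was 1 to 3, 3 being without replicate 2 (12.2%). The number with fewer MBD3 peaks was 1 to 5 when a replicate was left out, 5 without replicate 1 (Notch3, Dll1, Jag1, Hes1 and Rbpj), where 28.9% of all genes met the rule. For more CHD4 peaks it was 3 to 5 when a replicate was left out, 5 without replicate 2 (39.2% of all genes). Under the other settings it was 2 to 4. It was 2 within 10 kb (15.3% of all genes) and with values of at least 10 (17.9%). It was 4 when the nearest start had to be the gene's own (15.7%). Notch1 gained this call with values of at least 10, with equal lists and by nearest start. Jag1 lost its call within 10 kb, with values of at least 10 and with equal lists, and Hey1 lost its call with values of at least 10. For fewer CHD4 peaks it was 2 (Hes1 and Rbpj) within 100 kb (23.9% of all genes). It was also 2 with values of at least 5 (19.7%) or 10 (11.2%), with equal lists (22.0%) and per 1000 peaks (27.8%). When a replicate was left out it was 1 to 4, 4 without replicate 1 (Notch1, Notch3, Hes1 and Rbpj), against 48.7% of all genes. The share of NPC MBD3 peaks overlapping NPC CHD4 was between 88.9% and 100%. The cause of these shifts was not tested. No paired analysis was possible because NPCs have 1 list per factor.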

Other observations

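Other strings gave small counts. The octamer ATGCAAAT was in 1 of 9 NPC MBD3 peaks near the 9 genes (11.1%), 15.4 kb upstream of Notch1, against 0.521% of the whole list. The SOX2 string CCATTGT was in 1 of 7 ZFP296 peaks, at Rbpj, against 6.30% of that list, and in 0 of 9 NPC MBD3 peaks, against 4.12%. The E-box CAGCTG was in 2 of 9 NPC MBD3 peaks, at Notch1 and Notch2, against 21.6%. It was in 7 of 27 SIN3A peaks without spike-in, against 14.5%, and in 3 of 20 with spike-in, against 13.3%.

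Of all 193 peaks in the 9 windows, 66 lay in a start window of their own gene, 9 in that of another gene only, and 160 were closest to a start of the gene they were counted with.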
